A study of Mus musculus with 8 samples.

Results

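The mRNAs of 8 enzymes that desaturate or elongate fatty acids were followed in mouse hearts that do or do not make n-3 polyunsaturated fatty acids of their own. The enzymes were chosen by name, as Fads1, Fads2, Fads3, Elovl1, Elovl5, Elovl6, Scd1 and Scd2, and they are 8 of the 25929 genes listed in the expression table. Each was found by its Ensembl identifier and symbol, and each passed the filter on low values, under which a gene had to reach 1 FPKM in at least 2 libraries. FPKM counts a gene's fragments per unit of transcript length and of library depth. It does not adjust for other differences between libraries, so values scaled between libraries are also given.

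Long-chain polyunsaturated fatty acids are built from dietary linoleic acid (n-6) and alpha-linolenic acid (n-3) by alternating desaturation and elongation in the endoplasmic reticulum. Mammals use the same desaturases and elongases for both series and cannot turn an n-6 into an n-3 fatty acid. The fat-1 enzyme of Caenorhabditis elegans makes that conversion, and polyunsaturated fatty acids are known to lower transcription of several of these enzymes in the liver through the regulator SREBP-1c.

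RNA-sequencing covered 8 heart libraries, with 2 independent samples in each of 4 groups, and the labels give the tissue as ventricular whereas the study's methods speak of whole hearts. WT-Sham and WT-TAC mice carried no transgene and were C57BL/6 by the labels (C57BL/6J in the study's text), and Fat1-Sham and Fat1-TAC mice were littermates that carried the fat-1 gene. Mice aged 3 months underwent transverse aortic constriction (TAC), which narrows the aorta and loads the left ventricle with pressure for 8 weeks, or a sham operation in which the chest was opened without constriction. All 4 groups had been fed the same regular rodent diet, and the promoter that drives the transgene is not given in the sources used here. The table lists mouse genes, so the transgene's own mRNA was not analysed here and the genotype labels could not be checked with it.

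The libraries held 14163994 to 21218331 fragments. Markers of heart muscle were abundant in all libraries, with a summed level over 8 cardiomyocyte genes of 27755 FPKM in WT-TAC1 and of 50531 to 65330 FPKM in the other 7. WT-TAC1 stood apart in further ways, and WT-TAC2 in some of them. The summed level of 10 lung and airway markers reached 3681 FPKM in WT-TAC2 and 1559 FPKM in WT-TAC1, against 81.6 FPKM in Fat1-Sham1 and 1.18 to 4.47 FPKM in the other 5 libraries. Rag1, which is needed to rearrange antigen receptor genes in immature lymphocytes, reached 252 FPKM in WT-TAC1 and was at 0.059 FPKM or less in the other 7. The median FPKM of all genes was also higher in the WT-TAC libraries (2.61 and 1.58) than in the other 6 libraries (0.823 to 1.16), and each set of differences is therefore given beside the median of all genes. The part of these library differences in the results given here was not tested.

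The members lie at 5 places in the genome (GRCm38, GENCODE annotation). Fads3 (chromosome 19, 10041569 to 10060110, plus strand), Fads2 (10062765 to 10101746, minus strand) and Fads1 (10182888 to 10196877, plus strand) form a cluster in which Fads2 and Fads3 end 2654 bases from each other and the starts of Fads1 and Fads2 are 81141 bases apart. Scd2 (chromosome 19, 44293674 to 44306864, plus strand) and Scd1 (44394455 to 44407879, minus strand) are neighbours on the same chromosome with 87590 bases between them. The elongases are on separate chromosomes, with Elovl1 on chromosome 4 (118428093 to 118432953), Elovl5 on chromosome 9 (77917364 to 77984519) and Elovl6 on chromosome 3 (129532355 to 129638495), all on the plus strand.

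Upstream sequence is shown for Elovl1, Elovl5 and Fads3, picked by the order of their FPKM as deposited. Elovl1 was lower in every fat-1 library than in every WT library, as were 4.56% of all genes tested. Elovl5 was higher after TAC in WT mice and lower in fat-1 mice, as were 7.93% of genes. Scaling between libraries removed that order of Elovl5. Both WT-TAC libraries were above the other 6 in every member but Fads3, and in 40.3% of genes. The 250 bases before a RefSeq start of each gene (GRCm38.p6, plus strand, chr4:118427843-118428092, chr9:77917115-77917364 and chr19:10041298-10041547) are printed with CCAAT boxes (CCAAT on either strand) and an E-box (CACGTG) in capitals.
Elovl1: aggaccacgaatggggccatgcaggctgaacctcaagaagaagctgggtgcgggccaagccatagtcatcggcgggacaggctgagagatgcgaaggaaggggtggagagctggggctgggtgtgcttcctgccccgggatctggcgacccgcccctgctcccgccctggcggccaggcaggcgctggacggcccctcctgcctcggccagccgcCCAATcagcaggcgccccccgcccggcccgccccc
Elovl5: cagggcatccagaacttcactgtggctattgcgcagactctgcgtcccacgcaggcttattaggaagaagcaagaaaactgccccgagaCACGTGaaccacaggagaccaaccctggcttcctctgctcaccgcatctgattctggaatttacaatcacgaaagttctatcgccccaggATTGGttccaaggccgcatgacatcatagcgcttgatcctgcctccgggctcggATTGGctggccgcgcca
Fads3: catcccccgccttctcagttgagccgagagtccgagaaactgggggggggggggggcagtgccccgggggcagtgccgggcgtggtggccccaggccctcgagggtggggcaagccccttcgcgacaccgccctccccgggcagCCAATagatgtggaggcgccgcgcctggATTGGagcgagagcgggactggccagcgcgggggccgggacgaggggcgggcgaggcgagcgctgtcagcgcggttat

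Elovl5 held 1 E-box 161 bases before the start and 2 CCAAT boxes at 71 and 17 bases. Fads3 held 2 CCAAT boxes at 106 and 78 bases, and Elovl1 held 1 at 35 bases. The upstream sequences of Elovl6, of Fads2 and of a second RefSeq start of Elovl1 (chr4:118429451-118429700) held none of the motifs searched. Besides the CCAAT box and the E-box, these motifs were the sterol response element TCACNCCAC, the nuclear receptor direct repeats DR1 and DR4 and the TATA box TATAAA. All were searched on both strands. Among 32851 RefSeq promoters of the same length, 33.8% held a CCAAT box, 6.02% the E-box, 1.05% the sterol response element, 12.4% the TATA box, 0.0335% a DR1 and 0.0152% a DR4. The matches describe the letters only, since no binding of a factor was measured.

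In the unloaded wild-type heart the members covered a wide range of levels. Scd1 was the most abundant at 96.4 ± 39.9 FPKM (mean ± SD, n = 2 libraries, as in all group values here), followed by Elovl5 at 33.5 ± 0.029 FPKM. Fads3 (17.5 ± 3.23 FPKM) and Elovl1 (17.3 ± 0.712 FPKM) came next, and their libraries overlapped. The other 4 members could not be ordered beyond the spread between libraries, with 7.23 ± 3.29 FPKM for Scd2, 5.74 ± 0.629 FPKM for Elovl6, 5.73 ± 1.43 FPKM for Fads1 and 4.63 ± 1.58 FPKM for Fads2. The level per length depends on the length used for each gene, and the values of Elovl1, Elovl5 and Elovl6 corresponded to 1030, 1113 and 2401 bases, which are the mean lengths of their annotated transcripts and shorter than their longest ones (1811, 2782 and 5951 bases). Those of Fads1, Fads3, Scd1 and Scd2 corresponded to 3456, 3269, 4836 and 5453 bases, nearer to their longest transcripts (3460, 3687, 4832 and 5455 bases). That of Fads2 corresponded to 1508 bases, near its mean length of 1461 bases and shorter than its longest transcript (3150 bases). The order of elongases among the desaturases therefore depends on these lengths.

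**Figure D1:**
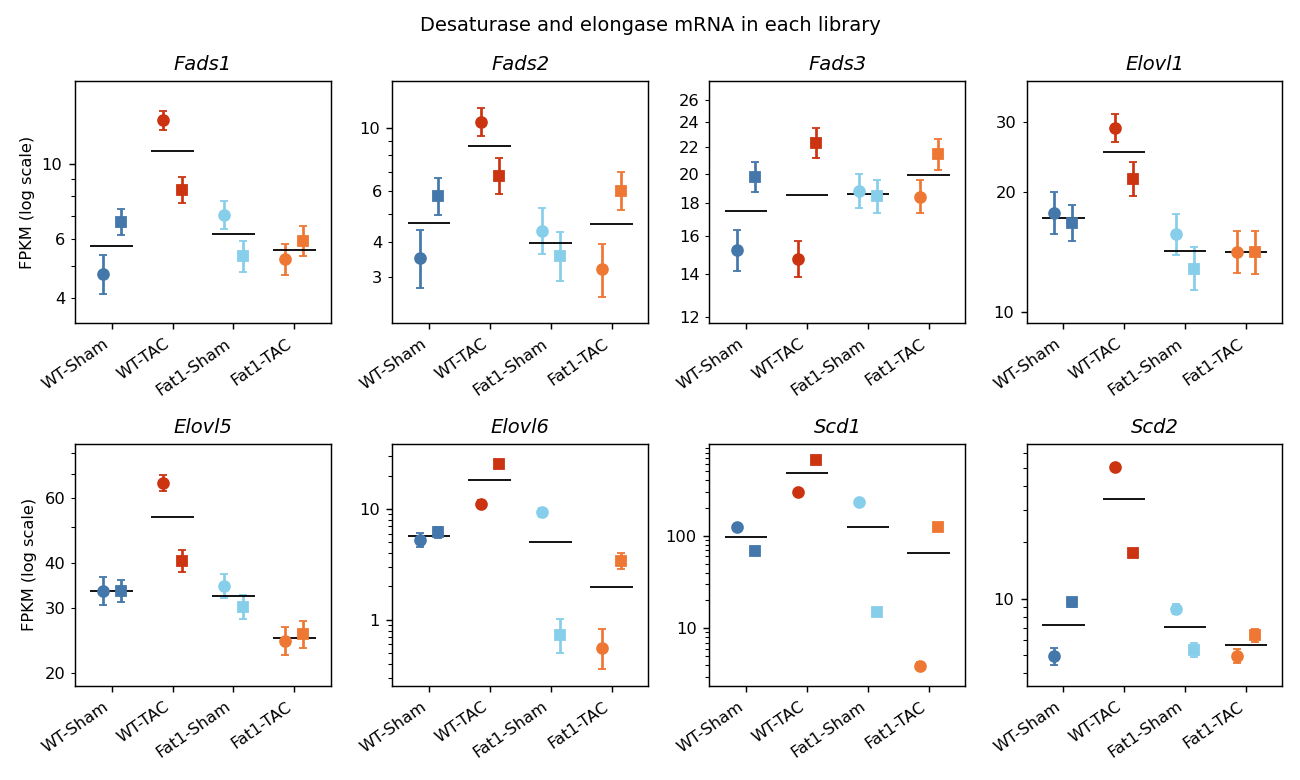
FPKM of the 8 members (log axis, a scale for each panel) in the 2 libraries of each group, with circles for replicate 1, squares for replicate 2, error bars for the exact Poisson 95% interval of the fragment count and a line at the group mean. Both WT-TAC libraries lie above the other 6 in all panels except Fads3, and Scd1 and Elovl6 differ most between the libraries of a group, with 14.9 and 236 FPKM of Scd1 in the Fat1-Sham libraries.

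Fads2 and Fads1, the delta-6 and delta-5 desaturases, carry out the front-end desaturations that lead to arachidonic, eicosapentaenoic and docosahexaenoic acid. Fads1 stood at 4.72 and 6.74 FPKM in WT-Sham, 13.4 and 8.38 FPKM in WT-TAC, 7.06 and 5.33 FPKM in Fat1-Sham and 5.22 and 5.92 FPKM in Fat1-TAC. Both WT-TAC libraries were above all the others, and the remaining 6 lay within 1.5-fold of each other. Fads2 was at 3.51 and 5.75 FPKM in WT-Sham, 10.5 and 6.79 FPKM in WT-TAC, 4.36 and 3.56 FPKM in Fat1-Sham and 3.19 and 6.03 FPKM in Fat1-TAC. Its order of groups was the same at the top, but the 2 libraries of Fat1-TAC differed 1.89-fold and spanned both sham groups. Fads2 rested on 75 to 314 fragments per library. The ratio of Fads1 to Fads2 within a library, which no scaling between libraries can alter, stayed between 0.981 and 1.63.

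Fads3, the third gene of the cluster, whose product desaturates sphingoid bases, behaved differently. It was at 15.2 and 19.8 FPKM in WT-Sham, 14.8 and 22.3 FPKM in WT-TAC, 18.8 and 18.4 FPKM in Fat1-Sham and 18.4 and 21.4 FPKM in Fat1-TAC. The groups overlapped in all comparisons, and WT-TAC held both the lowest and the highest of the 8 libraries. Set against Fads3 in the same library, Fads1 was at 0.908 and 0.375 in the WT-TAC libraries and at 0.276 to 0.375 in the other 6 libraries. WT-TAC2 exceeded the highest of these 6 only in the fourth decimal. The ratio of Fads2 to Fads3 was 0.711 and 0.304 in WT-TAC and 0.173 to 0.291 elsewhere, so that here too WT-TAC1 alone was clearly apart.

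Elovl5 elongates the shorter polyunsaturated intermediates and acts between the 2 front-end desaturases. Its libraries were at 33.5 and 33.5 FPKM in WT-Sham, 66.0 and 40.5 FPKM in WT-TAC, 34.5 and 30.3 FPKM in Fat1-Sham and 24.5 and 25.5 FPKM in Fat1-TAC. TAC libraries were thus above sham libraries in WT mice and below them in fat-1 mice, with no overlap in either. Of all genes tested, 7.93% showed this pair of orders. After scaling by the median of ratios (each library divided by the median ratio of its genes to their geometric means) 3.24% did and Elovl5 no longer did, because 1 of its WT-TAC libraries then lay within the WT-Sham range.

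Elovl1, which elongates saturated and monounsaturated acids to very long chains, was the member with the smallest standard error in limma. It was at 17.8 and 16.7 FPKM in WT-Sham, 28.9 and 21.6 FPKM in WT-TAC, 15.7 and 12.9 FPKM in Fat1-Sham and 14.2 and 14.1 FPKM in Fat1-TAC. All 4 fat-1 libraries lay below all 4 WT libraries, which held for 4.56% of the genes tested, and for 2.85% after scaling by the median of ratios, where Elovl1 was again among them by a narrow margin (16.8 against 16.9). None of the other 7 members showed this order on either scale. Elovl1 overlaps the gene Cdc20 on the opposite strand by 53 bases, and whether the counting used strand is not given in the sources used here. The ratio of Elovl5 to Elovl1 stayed between 1.73 and 2.35 in all libraries.

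Elovl6 elongates palmitate to stearate, and stearoyl-CoA desaturases such as Scd1 place the delta-9 double bond that turns stearate into oleate. Elovl6 was at 5.29 and 6.18 FPKM in WT-Sham and 11.0 and 25.6 FPKM in WT-TAC. In fat-1 mice it stood at 9.35 and 0.724 FPKM in the sham group and at 0.557 and 3.40 FPKM after TAC. The 2 Fat1-Sham libraries therefore differed 12.9-fold and together spanned both WT-Sham libraries. The lowest 2 values rested on 34 and 25 fragments, for which the exact Poisson 95% intervals were 0.501 to 1.01 FPKM and 0.361 to 0.823 FPKM. Intervals from fragment counts cover counting error only. Elovl6 shares 3.82% of its 50-base transcript stretches with the gene Gm11295.

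Scd1 varied most, at 125 and 68.2 FPKM in WT-Sham, 297 and 662 FPKM in WT-TAC, 236 and 14.9 FPKM in Fat1-Sham and 3.93 and 125 FPKM in Fat1-TAC. Its highest and lowest libraries were 168-fold apart, and the 2 libraries of Fat1-TAC alone 31.9-fold. Scd2, an isoform that is abundant in brain, was at 4.91 and 9.56 FPKM in WT-Sham, 50.6 and 17.6 FPKM in WT-TAC, 8.81 and 5.32 FPKM in Fat1-Sham and 4.94 and 6.36 FPKM in Fat1-TAC. It was steadier than Scd1 outside WT-TAC, where the 6 libraries lay within 1.95-fold of each other against 60.1-fold for Scd1. The ratio of Scd1 to Scd2 ran from 0.796 in Fat1-TAC1 to 37.6 in WT-TAC2 and overlapped between all groups. The 2 genes share some transcript sequence, with 3.03% of the 50-base stretches of Scd1 also in Scd2 and 3.49% also in Scd3, so a part of their fragments could be assigned to either.

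**Figure D2:**
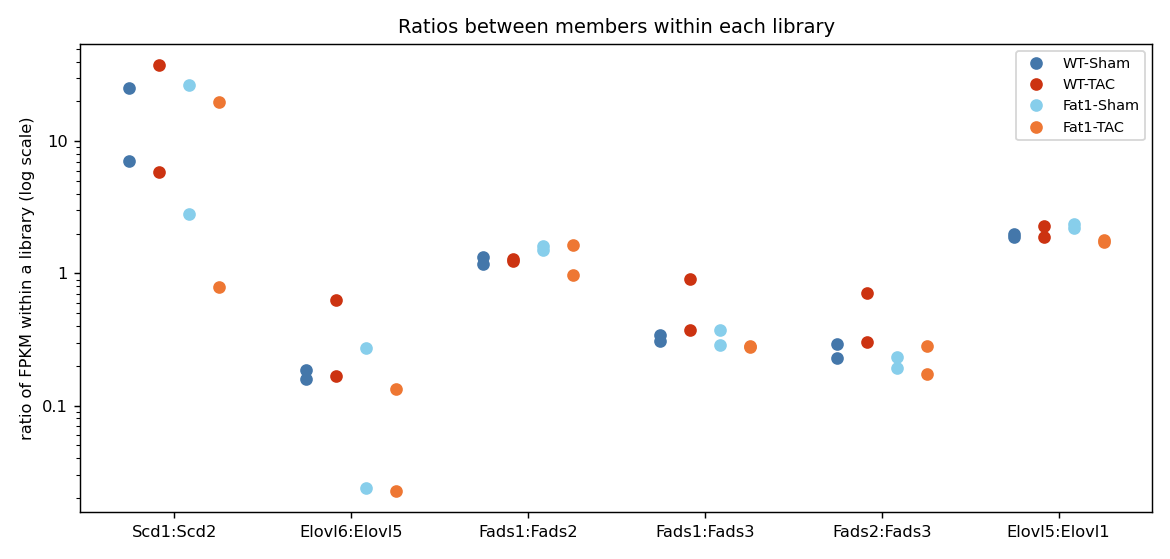
Ratio of FPKM between 2 members within each library (log axis), with points coloured by group. Scd1:Scd2 spreads over 47.2-fold with all groups overlapping and Elovl6:Elovl5 over 27.8-fold with both Fat1-TAC libraries below all 4 WT libraries, whereas Elovl5:Elovl1 and Fads1:Fads2 stay within 1.36-fold and 1.67-fold.

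The spread between replicates exceeded counting error in most pairs. In 22 of 32 replicate pairs (8 members in 4 groups) the Poisson 95% intervals of the 2 libraries did not overlap, including all 4 pairs of Scd1 and of Scd2 and 1 of 4 pairs each of Elovl1 and Elovl5. With 2 libraries a group, limma's p-values set each difference against a spread estimated from all 4 groups together and moderated by that of other genes. They speak for these samples only.

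The first question was whether endogenous n-3 synthesis shifts the members in unloaded hearts. Fat1-Sham and WT-Sham did not differ detectably in any member. The log2 fold changes (on the log2(FPKM + 1) scale, as are all given here, with limma's moderated test) ran from -0.67 for Elovl6 to 0.10 for Fads1, with a median of -0.10 beside -0.015 over all 14442 genes tested. A call needed more than a 1.5-fold difference and, after Benjamini-Hochberg adjustment over all genes, a p-value below 0.1. None of the 8 members was called, nor was any other gene (0.0% of those tested in either direction). At an unadjusted p under 0.05 limma again found 0 members, beside 0.319% of all genes higher and 0.928% lower. Limma-voom on the recovered fragments called 0 members and 0 genes of all tested.

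The intervals around these differences were narrow for some members and wide for others. For the front-end desaturases the 95% interval of the log2 difference was -0.57 to 0.77 (Fads1) and -0.98 to 0.66 (Fads2). It was -0.45 to 0.64 for Fads3, -0.72 to 0.19 for Elovl1 and -0.59 to 0.49 for Elovl5. Scd2 had a difference of -0.0048 with an interval of -1.21 to 1.20. For Elovl6 (-2.71 to 1.37) and Scd1 (-4.51 to 3.30) even large shifts were not detectable with 2 libraries a group. Elovl1 was the only member in which both Fat1-Sham libraries were below both WT-Sham libraries, an order found in 16.5% of all genes, and in 15.5% after scaling by the median of ratios, where Elovl1 was again the only member.

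Under pressure overload no member passed the test between the genotypes either. Both Fat1-TAC libraries lay below both WT-TAC libraries in 7 of 8 members, all except Fads3, but 57.1% of all genes tested showed the same order. The members' median log2 fold change was -0.92, beside -0.40 over all genes. No member was called by limma in either direction, although 1.39% of all genes were called lower and 0.0346% higher. Limma-voom called 0 members as well, beside 106 genes lower and 2 higher of 14442. At an unadjusted p under 0.05, 6 of 8 members were lower in Fat1-TAC, against 27.0% of all genes.

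Elovl5 came nearest to the threshold, at a log2 difference of -1.02 ± 0.23 (SE) with a limma adjusted p of 0.12. Scd2 followed at -2.23 ± 0.51 (limma adjusted p = 0.124) and Elovl1 at -0.78 ± 0.19 (limma adjusted p = 0.138). The differences of Elovl6 (-2.77 ± 0.87) and Scd1 (-4.15 ± 1.66) were larger and their errors were larger too, with adjusted p-values from limma of 0.162 and 0.166. Leaving out 1 library moved Scd1 between -6.49 (without Fat1-TAC2) and -1.81 (without Fat1-TAC1), and Elovl6 between -3.52 and -2.03 with the same libraries. Scd2 moved between -2.96 (without WT-TAC2) and -1.49 (without WT-TAC1). Fads1 (-0.83 ± 0.28) and Fads2 (-0.80 ± 0.35) were lower by similar amounts, at limma adjusted p-values of 0.163 and 0.172. Fads3 differed by 0.12 ± 0.23 (limma adjusted p = 0.701), with a 95% interval of -0.43 to 0.67.

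One library decided these calls. With WT-TAC2 left out, so that WT-TAC1 stood alone for its group and was assumed to vary like the other groups, limma called 6 members lower in Fat1-TAC, namely Elovl1, Elovl5, Elovl6, Fads1, Fads2 and Scd2, in a fit that called 46.1% of all genes lower. With WT-TAC1 left out no member was called, and Fads3 turned from higher to lower (-0.16). Scaling by the median of ratios kept the lower order of both Fat1-TAC libraries in 6 members (all but Fads2 and Fads3), beside 26.0% of all genes. The differences were smaller on that scale, at -0.40 for Fads1, -0.39 for Fads2, -0.33 for Elovl1, -0.56 for Elovl5, -1.78 for Scd2, -2.39 for Elovl6 and -3.70 for Scd1, with limma adjusted p-values of 0.227 to 0.366.

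**Figure D3:**
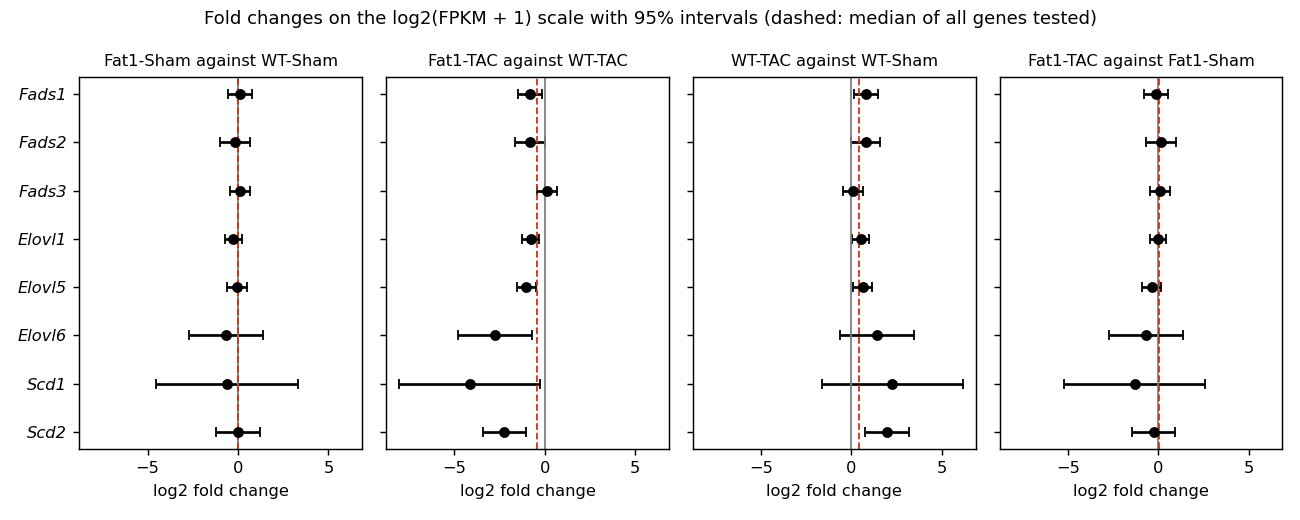
Log2 fold changes of the 8 members in 4 comparisons on the log2(FPKM + 1) scale, with limma's 95% interval as bars and the median of all genes tested as a dashed line. In Fat1-TAC against WT-TAC all members but Fads3 lie left of the dashed line at -0.40, and in the 2 panels without WT-TAC every interval includes 0.

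In WT mice, TAC and sham hearts were compared next, with the same WT-TAC libraries as in the comparison of genotypes under TAC. Both WT-TAC libraries were above both WT-Sham libraries in 7 of 8 members, again all but Fads3, and in 52.5% of all genes. The members' median log2 fold change was 0.79, beside 0.39 over all genes. Limma called no member, 0.921% of all genes higher and 0.0138% lower. Limma-voom called 0 members, beside 6 genes higher and 0 lower of 14442. At an unadjusted p under 0.05, 4 members were higher (Scd2, Fads1, Elovl5 and Elovl1), against 25.7% of all genes.

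Scd2 showed the difference that was clearest against its error, at 1.97 ± 0.51 on the log2 scale (limma adjusted p = 0.175). Fads1 was at 0.81 ± 0.28, Fads2 at 0.78 ± 0.35, Elovl5 at 0.61 ± 0.23 and Elovl1 at 0.51 ± 0.19, with limma adjusted p-values of 0.175 to 0.186. Elovl6 (1.41 ± 0.87) and Scd1 (2.25 ± 1.66) did not exceed the spread between replicates at an unadjusted p under 0.05. Fads3 was at 0.06 ± 0.23. When WT-TAC2 was left out, limma called Elovl1, Elovl5, Fads1, Fads2 and Scd2 higher, beside 44.0% of all genes, and without WT-TAC1 it called none of the 8. After scaling by the median of ratios, 5 members kept WT-TAC above WT-Sham in all libraries (Fads1, Fads2, Elovl6, Scd1 and Scd2), beside 24.2% of all genes, and Fads3 then fell on the other side at -0.38. On that scale the differences were 0.38 for Fads1, 0.36 for Fads2, 0.15 for Elovl5, 0.054 for Elovl1, 1.52 for Scd2, 0.98 for Elovl6 and 1.78 for Scd1. With 1 library left out, Scd2 ranged from 1.24 (without WT-TAC1) to 2.71 (without WT-TAC2), Elovl6 from 0.84 (without WT-TAC2) to 1.99 (without WT-TAC1) and Scd1 from 1.67 to 2.83 with the same libraries.

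Both WT-TAC libraries were above all 6 other libraries in 7 members and in 40.3% of all genes. On the scaled values that held for Fads1 and Scd2 only, and for 13.4% of all genes. Scaled Fads1 was at 8.89 and 7.61 in WT-TAC and at 7.59 or less elsewhere, so its margin was small. Scaled Scd2 was at 33.5 and 16.0 in WT-TAC against 9.64 or less elsewhere, which made it the member with the widest gap.

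**Figure D4:**
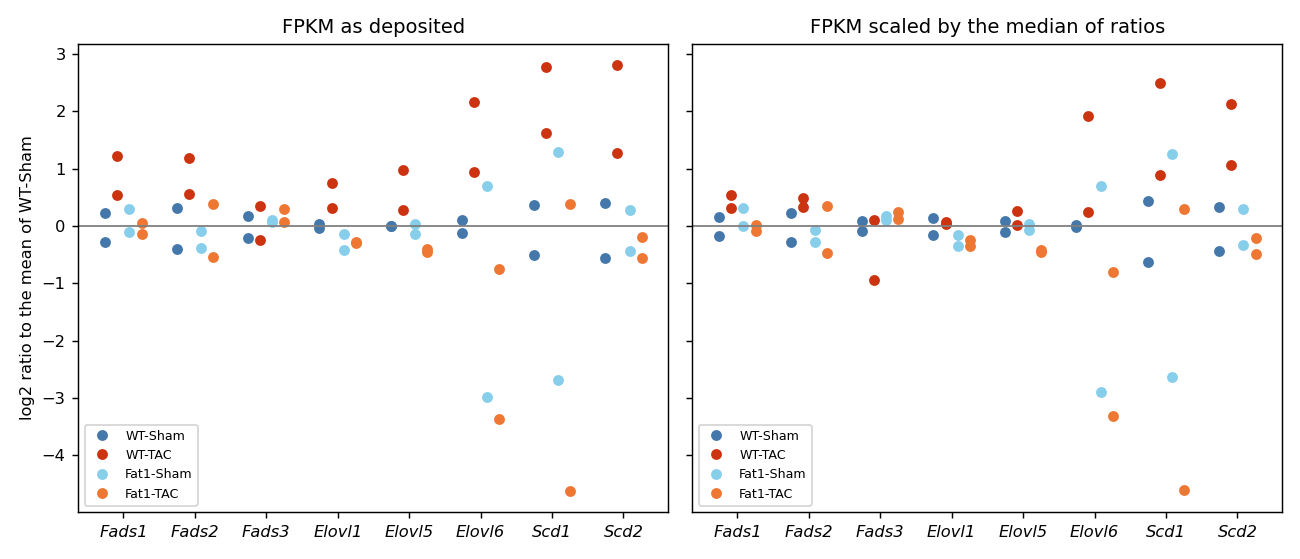
Log2 ratio of each library to the mean of the WT-Sham libraries for the 8 members, from FPKM as deposited on the left and from FPKM scaled by the median of ratios on the right, with points coloured by group. On the right the WT-TAC points of Elovl1 and Elovl5 return to the WT-Sham range or near it, WT-TAC1 of Fads3 falls below all other libraries, and the Scd2 points of WT-TAC stay above the rest.

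In fat-1 mice TAC and sham hearts were close in most members. Log2 fold changes lay between -1.30 (Scd1) and 0.13 (Fads2), with a median of -0.19 beside 0.025 over all genes. No member was called by limma, which called 0.00692% of all genes higher and 0.0% lower, and 0 members had an unadjusted p under 0.05, beside 1.65% of all genes higher and 0.928% lower. Limma-voom called 0 members as well, and 0 of all genes tested. Elovl5 was the only member whose libraries did not overlap, both Fat1-TAC libraries being lower, an order found in 21.5% of all genes (27.6% after scaling, with Elovl5 again the only member), and its difference was -0.36 ± 0.23 with a 95% interval of -0.90 to 0.18. The intervals of Scd1 (-5.21 to 2.61) and Elovl6 (-2.73 to 1.35) were wide, and both turned positive when Fat1-Sham1 was left out (0.65 and 0.60) or when Fat1-TAC1 was (1.04 and 0.06).

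Averaged over both surgeries, with 4 libraries on each side, the genotype difference was below 0 in 7 members and 0.11 in Fads3. The members' median was -0.53, beside -0.22 over all genes. Elovl1 had the smallest p (-0.52 ± 0.14, unadjusted p = 0.00651 and adjusted p = 0.249 by limma), and Scd2 (-1.12 ± 0.36), Elovl5 (-0.54 ± 0.16) and Elovl6 (-1.72 ± 0.61) also had an unadjusted p under 0.05, against 13.7% of all genes. No member was called, with 0.0346% of all genes called lower and 0.00692% higher. Limma-voom called 0 members, and 0 of all genes tested. Without WT-TAC2, limma called Elovl1, Elovl5, Fads2 and Scd2 lower, beside 24.0% of all genes.

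The same averaged difference was examined for each member alone by an exact two-sided permutation of the genotype labels within each surgery. The 36 arrangements allow no p below 0.0556, and 2 libraries against 2 allow none below 0.333. Elovl1 reached that smallest exact p of 0.0556, since both fat-1 libraries were lower in each surgery, an order found in 10.4% of all genes. Elovl5, Elovl6 and Scd2 had an exact permutation p of 0.167, Fads2 and Scd1 of 0.222, Fads1 of 0.333 and Fads3 of 0.611. After Benjamini-Hochberg adjustment over the members, the exact permutation p was 0.296 for Elovl1 and 0.296 to 0.611 for the others.

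Whether the response to TAC differed between the genotypes was tested by the interaction of genotype and surgery. Its log2 value was -2.22 ± 0.72 for Scd2 and -0.97 ± 0.32 for Elovl5, the 2 members with an unadjusted p under 0.05 (6.61% of all genes were as low), and both had a limma adjusted p of 0.495. Fads1 was at -0.93 ± 0.40 and Elovl1 at -0.51 ± 0.27. Elovl6 (-2.10 ± 1.23), Scd1 (-3.55 ± 2.35) and Fads2 (-0.64 ± 0.49) had wide errors, and Fads3 was at 0.03 ± 0.33. Limma and limma-voom called 0 members, while limma called 0.0623% of all genes lower and 0.00692% higher and limma-voom called 0 genes. The members' median of -0.95 compares with -0.37 over all genes. Without WT-TAC2, limma called Elovl1, Elovl5, Fads1 and Scd2 lower, beside 39.3% of all genes.

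Scd1 and Elovl6 shared their highest and lowest libraries with mRNAs of fat cells. The 8 white adipocyte markers summed to 225 and 319 FPKM in WT-Sham, 667 and 877 FPKM in WT-TAC, 303 and 126 FPKM in Fat1-Sham and 36.1 and 334 FPKM in Fat1-TAC. WT-TAC2 and WT-TAC1 were the highest and Fat1-Sham2 and Fat1-TAC1 the lowest for Scd1, for Elovl6 and for these markers alike. Ucp1, the uncoupling protein of brown fat, was at 12.0 and 44.0 FPKM in WT-Sham, 39.4 and 102 FPKM in WT-TAC and 36.4 FPKM in Fat1-Sham1. It stood at 0.0313 FPKM (1 fragment) in Fat1-Sham2, was listed at 0 in Fat1-TAC1 and was at 0.943 FPKM in Fat1-TAC2. All 8 white adipocyte markers were above 3 fragments in 6 libraries, 7 were in Fat1-Sham2 and 6 in Fat1-TAC1. The summed lung and airway markers were also highest in WT-TAC2, then WT-TAC1, then Fat1-Sham1, the order of the 3 highest libraries of Scd1 and Elovl6. Single genes of that list differed. Scgb1a1, Bpifa1, Scgb3a1 and Foxj1 were higher in WT-TAC2 than in WT-TAC1, and Sftpb, Sftpa1, Cdh1, Epcam and Krt8 were lower. Sftpc was at 74.7 FPKM in WT-TAC1, 0.138 FPKM in WT-TAC2 and 29.9 FPKM in Fat1-Sham1. Fat1-Sham1 was the fifth for the summed white adipocyte markers. It was among the 3 highest libraries for Adipoq, Plin1 and Adig, and not for the other genes of that list. In whole tissue, fewer cells of a type and less RNA per cell cannot be told apart, and the part of fat, lung or airway tissue in the Scd1 and Elovl6 values was not tested.

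The other members did not share that order. Fads1, Fads2, Elovl1, Elovl5 and Scd2 were highest in WT-TAC1, the library with 689 FPKM of summed lymphocyte markers (6 genes) against 35.7 FPKM in WT-TAC2, 29.6 FPKM in Fat1-TAC2 and 0.858 to 2.17 FPKM in the other 5. Most of that sum in WT-TAC1 came from Cd8b1, Rag1 and Cd3e (276, 252 and 87.8 FPKM). Jchain was at 67.4 FPKM in WT-TAC1 and 28.7 FPKM in WT-TAC2. Cd79a and Ms4a1 were slightly lower in WT-TAC1 (4.57 and 1.49 FPKM) than in WT-TAC2 (4.70 and 1.83 FPKM). Macrophage markers (6 genes) summed to 605 FPKM in WT-TAC1, 458 FPKM in WT-TAC2 and 280 to 391 FPKM elsewhere. Keratinocyte and sebocyte markers (5 genes) summed to 71.0 FPKM in WT-TAC1 and 1.98 to 7.13 FPKM elsewhere. Fibroblast markers (6 genes) were at 501 to 923 FPKM, endothelial markers (6 genes) at 253 to 388 FPKM, brown adipocyte markers (4 genes) at 19.2 to 219 FPKM and blood markers (4 genes) at 3957 to 9776 FPKM. Endothelial markers were lowest in WT-TAC1. The part of any of these cells in the members' values was not tested.

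**Figure D5:**
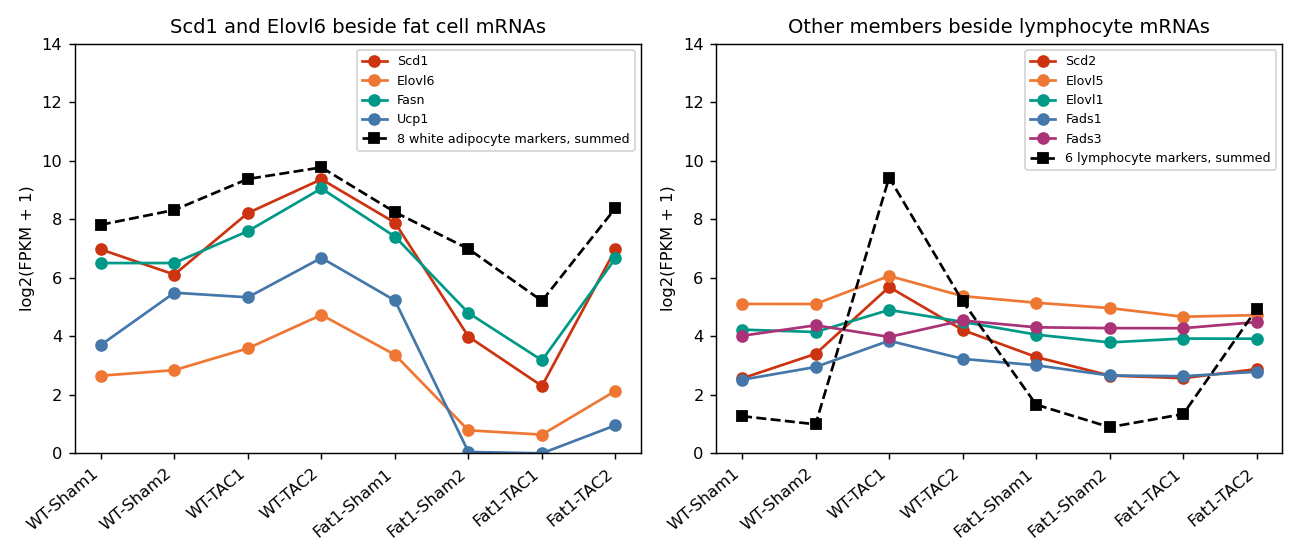
Log2(FPKM + 1) in each of the 8 libraries, with Scd1, Elovl6, Fasn, Ucp1 and the summed white adipocyte markers on the left, and 5 other members with the summed lymphocyte markers on the right, where the lines join libraries only to guide the eye. Scd1, Elovl6 and Fasn are highest in WT-TAC2 and lowest in Fat1-TAC1 as the fat markers are, and Scd2, Elovl5, Elovl1 and Fads1 are highest in WT-TAC1, where the lymphocyte markers reach 689 FPKM.

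The genes whose values followed each member most closely were found by Pearson's r of log2(FPKM + 1) over the 8 libraries, among 14441 other genes. Scd1 was most like Fasn, the fatty acid synthase (r = 0.989), and Cdo1, a cysteine dioxygenase (r = 0.977). Elovl6 was most like Prkar2b, a regulatory subunit of protein kinase A (r = 0.983), and Acaca, the acetyl-CoA carboxylase of lipogenesis (r = 0.974). For Scd2 these were Fam102b (r = 0.997) and Secisbp2l (r = 0.996), for Fads1 Arhgef11 (r = 0.995) and Zfp764 (r = 0.994), and for Fads2 Letm2 (r = 0.982) and Zfp326 (r = 0.981). Elovl5 was most like Nmt2 (r = 0.988) and Zscan22 (r = 0.988), Elovl1 like Mmp9, a matrix metalloproteinase (r = 0.986), and Slc25a24 (r = 0.986), and Fads3 like Cldn12 (r = 0.978) and Zfp383 (r = 0.974). Without WT-TAC1 these r values were still 0.958 or more. The libraries share depth and the tissue makeup given here, and the highest of many correlations over 8 points is a description only.

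Fasn was at 89.9 and 90.0 FPKM in WT-Sham, 193 and 532 FPKM in WT-TAC, 169 and 26.9 FPKM in Fat1-Sham and 8.06 and 101 FPKM in Fat1-TAC. Acaca ran in the same order at its ends, from 86.9 FPKM in WT-TAC2 to 3.97 FPKM in Fat1-TAC1. In the list of 10 genes of de novo lipogenesis, limma called none in any of the 6 comparisons, and the median log2 fold change of Fat1-TAC against WT-TAC was -2.00, beside -0.40 over all genes.

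None of the other genes of the pathway was called by limma either, in any of the 6 comparisons. At an unadjusted p under 0.05 in Fat1-TAC against WT-TAC, 0 of 5 further desaturases and elongases tested were lower, 5 of 11 partners of elongation and desaturation (1 was higher), 4 of 10 genes of peroxisomal chain shortening, 8 of 14 of activation and incorporation into phospholipids (1 was higher), 5 of 14 transcriptional regulators and 6 of 10 lipogenic genes (1 was higher). The shares are to be read beside 27.0% of all genes lower and 2.44% higher.

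Among the partners, Hsd17b12, the ketoacyl-CoA reductase of the elongation cycle, was at 19.9 and 26.5 FPKM in WT-Sham, 32.6 and 35.6 FPKM in WT-TAC, 21.8 and 16.3 FPKM in Fat1-Sham and 16.5 and 19.5 FPKM in Fat1-TAC. Its averaged genotype difference was -0.58 ± 0.15 on the log2 scale (limma adjusted p = 0.248). Hacd2, a dehydratase of the same cycle, was at 2.24 to 4.02 FPKM outside WT-TAC and at 6.97 and 7.85 FPKM in it, with an averaged difference of -0.71 ± 0.19 (limma adjusted p = 0.249). Of the further desaturases and elongases, Degs2 ran from 0.0564 to 2.10 FPKM, with an averaged difference of -0.62 ± 0.33 (limma adjusted p = 0.365). Elovl3, an elongase of brown fat and skin, was at 0.142 and 1.14 FPKM in WT-Sham and 0.405 and 1.98 FPKM in WT-TAC. It was at 1.81 FPKM in Fat1-Sham1 and listed at 0 in the other 3 fat-1 libraries. Its averaged difference was -0.47 ± 0.41 (limma adjusted p = 0.472).

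Srebf1, which encodes the SREBP-1 regulators of these enzymes, was at 17.4 and 37.4 FPKM in WT-Sham, 90.6 and 64.4 FPKM in WT-TAC, 29.1 and 21.3 FPKM in Fat1-Sham and 26.6 and 36.5 FPKM in Fat1-TAC. Both WT-TAC libraries were the highest, and the averaged genotype difference was -0.65 ± 0.26 (limma adjusted p = 0.328). Pparg, a regulator of fat cell genes, was at 16.8 and 27.3 FPKM in WT-TAC and 9.62 to 13.0 FPKM elsewhere, with an averaged difference of -0.53 ± 0.18 (limma adjusted p = 0.287). In phospholipid handling, Pla2g4a, the cytosolic phospholipase A2 that releases arachidonic acid, was at 2.38 and 5.61 FPKM in WT-Sham, 6.64 and 6.69 FPKM in WT-TAC and 1.72 to 2.75 FPKM in the 4 fat-1 libraries. Its averaged difference was -0.86 ± 0.23 (limma adjusted p = 0.256). Lpcat2, a lysophospholipid acyltransferase, reached 7.02 FPKM in WT-TAC1 and stood at 0.514 to 1.27 FPKM in the other 7. Peroxisomal Acaa1b and Abcd2 were at 5.64 and 6.69 FPKM in WT-TAC2, and their averaged differences of -0.88 ± 0.36 and -0.56 ± 0.25 had limma adjusted p-values of 0.328 and 0.346.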

How the data were processed

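Heart RNA from 4 groups of 2 libraries had been made into libraries with the NEBNext Ultra kit and sequenced in pairs on an Illumina HiSeq. The submitters' processing notes name HISAT2 and mm10 (GRCm38). Versions, annotation and counter are not given in the sources used here. The authors deposited FPKM for 25929 genes, of which 25852 carried a symbol, and 4 blank lines were dropped.

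Every gene's 8 values were whole fragments (tolerance 0.01) at 1 length, which gave 14163994 to 21218331 fragments per library. Genes that reached 1 FPKM in 2 libraries (14442) were fitted as log2(FPKM + 1) with limma 3.58.1 (lmFit, eBayes with trend, R 4.3.3) on all 8 libraries and 4 group means. The fit was tried on counts simulated with the same dispersion for every gene and library. That trial gives no power or error rate for members as variable as Scd1 and Elovl6. Calls needed a 1.5-fold change and a Benjamini-Hochberg adjusted p under 0.1, the cutoffs of the study's methods. Replicate numbers did not pair the samples. Alternatives were other scalings, filters, pseudocount, library weights, limma-voom, a replicate block and left-out libraries. Named are all members, per pathway list without a call the 2 genes with the largest averaged genotype difference, and the 2 genes most like each member. Members and lists were chosen with earlier results of these data known. Genes were annotated with GENCODE M21, and 5 of 8 members matched a RefSeq promoter.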

Additional observations from a re-analysis of the deposited data

Results flagged for a closer look

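The response to TAC had opposite orders in the genotypes for Elovl5, in which both WT-TAC libraries were above both WT-Sham libraries and both Fat1-TAC libraries were below both Fat1-Sham libraries, and the interaction was -0.97 on the log2 scale with a limma adjusted p of 0.495. Pparg showed the same opposite orders, with an interaction of -1.09 and a limma adjusted p of 0.495. Neither interaction passed the threshold. After scaling by the median of ratios neither gene kept the order in WT mice, with Elovl5 at 43.7 and 36.8 in WT-TAC against 38.7 and 33.8 in WT-Sham, and Pparg at 11.2 and 24.8 in WT-TAC against 12.8 and 11.5 in WT-Sham.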

How the results depend on the processing

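No member was called with median-of-ratios scaling, quantile normalization, no filter, a pseudocount of 0.1, a minimum mean of 5 FPKM, a fit of the compared groups alone, library weights, limma-voom or the replicate block (0 members called in each comparison it was run for, as without the block). Only the number links same-numbered libraries (r across genes of -0.135 to 0.0236 between their deviations). Leaving out 1 library at a time gave 0 to 6 members called in Fat1-TAC against WT-TAC, 0 to 5 in WT-TAC against WT-Sham, 0 to 4 in the averaged genotype difference, 0 to 4 in the interaction and 0 in the other 2 comparisons. All of these calls came without WT-TAC2. Leaving out WT-TAC1 and Fat1-Sham1 together was an alternative chosen after seeing the data, and it left 1 library in each of their groups. It moved the averaged difference of Elovl6 to -2.66. The Fat1-Sham1 library so removed had the most Elovl6 of the fat-1 libraries (9.35 FPKM, against 0.724, 0.557 and 3.40 FPKM).

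Direction turned in members with differences near 0 or wide errors, and the cause was not tested. Scaling turned Scd2 in the sham comparison (0.031 by median of ratios, 0.026 by quantiles) and Fads3 in WT-TAC against WT-Sham (-0.38 and -0.43). Log2 differences that turned on leaving out 1 library had the ranges given here. In Fat1-Sham against WT-Sham the ranges were -0.12 to 0.32 for Fads1, -0.083 to 0.27 for Fads3, -0.45 to 0.13 for Fads2, -0.42 to 0.41 for Scd2, -0.14 to 0.043 for Elovl5, -1.96 to 0.62 for Elovl6 and -2.55 to 1.35 for Scd1. In WT-TAC against WT-Sham the range was -0.22 to 0.34 for Fads3. In the interaction the range was -0.26 to 0.31 for Fads3. In Fat1-TAC against WT-TAC the range was -0.16 to 0.40 for Fads3. In the averaged genotype difference the range was -0.032 to 0.25 for Fads3. In Fat1-TAC against Fat1-Sham the ranges were -0.30 to 0.052 for Fads1, -0.14 to 0.13 for Elovl1, -1.98 to 0.60 for Elovl6, -3.64 to 1.04 for Scd1, -0.57 to 0.065 for Scd2, -0.24 to 0.51 for Fads2 and -0.016 to 0.19 for Fads3. Without WT-TAC1 and Fat1-Sham1 together, Fads1 turned in the sham comparison (-0.072), Fads3 in Fat1-TAC against WT-TAC (-0.16), the averaged difference (-0.039) and the interaction (-0.24), and Fads1 (0.052), Elovl1 (0.13), Elovl6 (0.60), Scd1 (0.65) and Scd2 (0.065) in Fat1-TAC against Fat1-Sham. Without turning, the averaged difference ranged from -3.55 to -1.21 for Scd1, -2.37 to -1.08 for Elovl6 and -1.48 to -0.75 for Scd2 with 1 library left out, and the interaction from -5.89 to -1.21, -3.40 to -0.81 and -2.96 to -1.49. Depth limits the lowest Elovl6 and Fads2 values.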
